A study of Homo sapiens with 8 samples.

Results

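The regions described here are stretches of chromatin in H1975 cells that were listed as accessible after treatment with ACBI1 and not with the solvent DMSO. Overlapping peaks (by at least 1 bp) of the 4 H1975 peak lists were merged on chromosomes 1 to 22 and X, and a merged region was kept when it held a peak in both ACBI1 lists and in neither DMSO list. This left 650 regions of 48394, or 1.34%. Presence of a peak in the H1975 lists chose these regions, so every H1975 value of them below is a description and carries no test.

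The assay was ATAC-seq, which reads accessibility from the sites where a transposase can cut the DNA and tag it. H1975 is a lung adenocarcinoma line and HCC44 a non-small cell lung cancer line. In each line, 2 samples received DMSO and 2 received ACBI1 at a labelled dose of 1 mM, all for 96 h, and the genotype label of all 8 is WT. The labels do not say whether replicates came from separate cultures, so the spread between them may be technical. One peak list per sample was deposited, with 22133 to 27682 peaks in the ACBI1 lists and 41027 to 43525 in the DMSO lists of H1975, and 24862 to 26313 against 49945 to 50347 in HCC44. Read depth is unknown, no counting interval was computed, and a missing peak is not a measurement of closed chromatin. Peaks at the boundaries of EPCAM, CDH1, KRT7, KRT8, KRT18, KRT19, NKX2-1, NAPSA and SFTPC, and of the mesenchymal markers VIM and ZEB1, were present in all 4 H1975 lists, and none was present at SFTPB, ZEB2 or CDH2. Of the blood markers, PTPRC had none, CD14 had one in all 4 lists and CD3E had one in both DMSO lists and neither ACBI1 list.

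ACBI1 is a bifunctional molecule that brings SMARCA2, SMARCA4 and PBRM1 to a ubiquitin ligase and so to degradation. SMARCA2 and SMARCA4 are the alternative motor subunits of the SWI/SNF (BAF) complexes, which slide or evict nucleosomes and keep many enhancers and some promoters accessible. Loss of their activity is known mostly for closing enhancers, and the regions considered here are those listed in the opposite direction.

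Few of the 650 regions lay on promoters. A peak covered part of a RefSeq promoter window (250 bases before to 50 after a gene's start, GRCh38.p14) in 26 of them, or 4.0%, against 21.6% of all merged regions. Together they touched 31 of 34789 windows. The stretches below are the parts of 6 such windows that lie before the start and inside the gained region, for protein-coding genes with no annotated gene in the stretch. They were chosen after their values were seen, to show promoters with different HCC44 patterns, are taken from RefSeq (GRCh38.p14) and run 5′ to 3′ on the gene's strand. Capitals mark matches, on either strand, to the motifs spelled out after them, and neighbouring matches can join into 1 run.
TOR1AIP2 (chr1:179877804-179878030, minus strand): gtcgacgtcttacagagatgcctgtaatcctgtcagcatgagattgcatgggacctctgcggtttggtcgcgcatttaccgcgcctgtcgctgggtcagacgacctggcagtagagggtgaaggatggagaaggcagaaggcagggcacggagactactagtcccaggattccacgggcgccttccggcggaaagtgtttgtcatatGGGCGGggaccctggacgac
SEMA3G (chr3:52445104-52445314, minus strand): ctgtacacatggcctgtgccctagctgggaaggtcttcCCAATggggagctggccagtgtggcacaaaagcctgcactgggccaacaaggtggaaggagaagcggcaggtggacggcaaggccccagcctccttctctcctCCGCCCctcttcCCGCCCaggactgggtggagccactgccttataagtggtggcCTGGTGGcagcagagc
SLC29A1 (chr6:44219387-44219614, plus strand): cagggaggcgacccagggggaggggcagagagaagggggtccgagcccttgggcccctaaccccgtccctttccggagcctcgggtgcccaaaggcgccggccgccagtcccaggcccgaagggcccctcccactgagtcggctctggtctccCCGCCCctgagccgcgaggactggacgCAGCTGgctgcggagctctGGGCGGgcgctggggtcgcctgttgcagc
LRRC71 (chr1:156920382-156920625, plus strand): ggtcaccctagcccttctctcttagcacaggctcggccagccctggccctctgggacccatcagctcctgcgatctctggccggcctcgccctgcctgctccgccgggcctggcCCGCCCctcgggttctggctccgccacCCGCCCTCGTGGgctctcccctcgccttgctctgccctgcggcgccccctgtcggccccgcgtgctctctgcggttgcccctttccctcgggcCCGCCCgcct
TMOD4 (chr1:151175982-151176187, minus strand): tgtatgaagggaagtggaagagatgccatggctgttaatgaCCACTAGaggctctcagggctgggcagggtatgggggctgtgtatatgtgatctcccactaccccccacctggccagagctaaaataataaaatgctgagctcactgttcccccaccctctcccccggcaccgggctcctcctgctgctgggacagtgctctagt
SELENON (chr1:25799943-25800188, plus strand): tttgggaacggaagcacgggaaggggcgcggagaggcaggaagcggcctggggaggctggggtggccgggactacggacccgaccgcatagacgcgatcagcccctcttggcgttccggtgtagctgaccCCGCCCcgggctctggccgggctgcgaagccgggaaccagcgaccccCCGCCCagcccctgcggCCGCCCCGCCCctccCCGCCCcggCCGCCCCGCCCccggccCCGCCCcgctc

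The TOR1AIP2 stretch belongs to an activator of torsin ATPases in the nuclear envelope and endoplasmic reticulum, and it held 1 GC box. The region over it, chr1:179877759-179878030, had a −log10 q of 39.4 and 31.9 in the 2 ACBI1 lists of H1975, and of 22.1, 25.5 and 32.3 in both DMSO lists and ACBI1 replicate 1 of HCC44. SEMA3G and LRRC71, a secreted semaphorin and a leucine-rich repeat protein, had a peak in all 4 HCC44 lists. The SEMA3G region had 29.5 and 30.6 in H1975, and in HCC44 24.1 and 20.2 (DMSO) and 23.4 and 16.2 (ACBI1). SLC29A1, a nucleoside transporter of the plasma membrane, had 25.1 and 23.4 in H1975 and was missing from DMSO replicate 2 of HCC44 alone. TMOD4, a tropomodulin of muscle, was listed with ACBI1 alone in both lines, at 14.0 and 12.7 in H1975 and 19.0 and 20.4 in HCC44. SELENON, a selenoprotein of the endoplasmic reticulum with 8 GC box matches in its stretch, had 14.1 and 15.7 in H1975 and no peak in HCC44. Promoters among the gained regions thus ranged from sites listed in DMSO-treated HCC44 cells to sites listed in neither line without ACBI1.

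Over the 31 promoter windows, 12 short motifs were searched on both strands. The GC box (GGGCGG) was present in 58.1% of them, against 44.9% of all 34789 windows, 74.0% of those under regions retained in all 4 H1975 lists and 27.3% of those under regions lost with ACBI1 (a peak in both DMSO lists and in neither ACBI1 list). The CTCF core (CCACNAG) was present in 25.8%, or 8 windows, against 14.2% of all windows. The AP-1 motif (TGANTCA) matched none of the 31, against 7.69% of all windows and 37.7% of the windows under lost regions. TEAD (ACATTCC), FOX (TGTTTAC) and C/EBP (TTGCGCAA) matched none either, against 3.48%, 3.42% and 0.152% of all windows. RUNX (TGTGGTT) matched 9.68%, or 3 windows, against 4.28% of all windows and 9.61% of the windows under lost regions. The E-box (CAGCTG) matched 16.1%, against 17.9% of all windows. The CCAAT box, whose name gives its letters, matched 29.0%, against 34.6%. ETS (CCGGAAGT), the GATA factor motif (AGATAA) and the NRF1 motif (GCGCATGC) matched 3.23% each, or 1 window, against 4.12%, 10.4% and 3.02% of all windows. Matches can overlap, and a missing match says only that these letters are not in the window. The median GC content was 68.0%, against 66.7% under retained and 51.7% under lost regions, and the CpG observed over expected ratio was 0.627, between 0.850 under retained and 0.247 under lost regions. In base composition these windows were closer to the retained promoters in GC and intermediate in CpG. Over all windows the median GC content was 58.7% and the CpG ratio 0.578, so the CpG ratio was near that of all windows. Some of the 31 windows lie under the same region, as at SEMA3B and COLCA1, and are not separate sites.

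The gained regions were narrow and mostly away from gene ends. Their median width was 357.5 bp (interquartile range 301 to 476.75), against 996 bp for retained, 389 bp for lost and 547 bp for all merged regions. A gene boundary, a window reaching 1 kb to each side of the start or end of a protein-coding gene, was touched by 88 (13.5%), against 50.7% of retained, 3.23% of lost and 23.9% of all regions. Inside a protein-coding gene lay 322 (49.5%), against 74.3% of retained and 53.4% of lost regions. Exons and introns were not analysed here. The median distance to a RefSeq start was 14410.5 bp, against 1550 bp for retained and 28898 bp for lost regions. In boundary share and distance to a start the gained regions sat between the retained and the lost ones, while their share inside genes was below both. These traits were not particular to them. Regions with a peak in both ACBI1 lists and 1 DMSO list had 419 bp, 14.1% at a boundary, 48.1% inside genes and 13723 bp to a start. Those with a peak in 1 ACBI1 list and no DMSO list had 293 bp, 9.37%, 51.8% and 20146 bp.

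Of the gained regions, 63.8% lay within 10 kb of a peak listed with DMSO, a share that was 35.7% when every list was shortened to the same number of peaks. The nearest peak of either H1975 DMSO list was 367 bp to 623679 bp away, with a median of 5538.5 bp, and 415 regions had one within 10 kb. Only 16 (2.46%) had one within 1 kb, and 34 (5.23%) had none within 50 kb. Measured to the nearest other merged region with a DMSO peak, 64.3% of gained regions had one within 10 kb, against 49.6% of retained, 49.2% of lost and 49.4% of all regions.

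**Figure D1:**
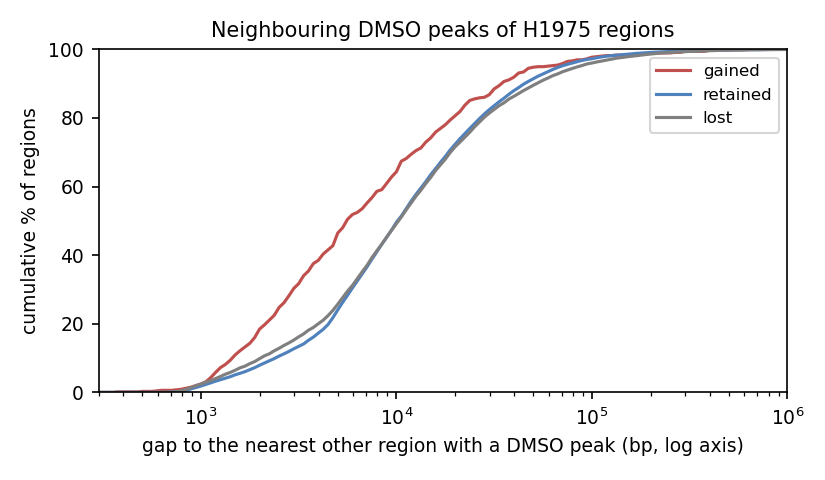
The cumulative percentage of regions (y axis) is plotted against the gap to the nearest other merged H1975 region with a DMSO peak (x axis, bp, log scale) for gained, retained and lost regions. The gained regions reach 64.3% at 10 kb, where retained and lost regions reach 49.6% and 49.2%.

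The peaks at the gained regions were among the weaker ones of their lists. The fold enrichment and −log10 q of each peak are the authors' and were used only within a list. In ACBI1 replicate 1 the −log10 q of the 650 ran from 10.4 to 66.9 with a median of 21.7, while the whole list had a median of 40.7 and a maximum of 790. In replicate 2 it ran from 10.2 to 67.2 with a median of 17.7, against 42.2 for the list. The median percentile within the list was 22.9 and 14.1. Only 20 and 8 of the 650 stood in the upper part of the list by rank, above its median. Median fold enrichment was 5.30 and 5.59, against 6.13 and 7.37 for the lists.

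**Figure D2:**
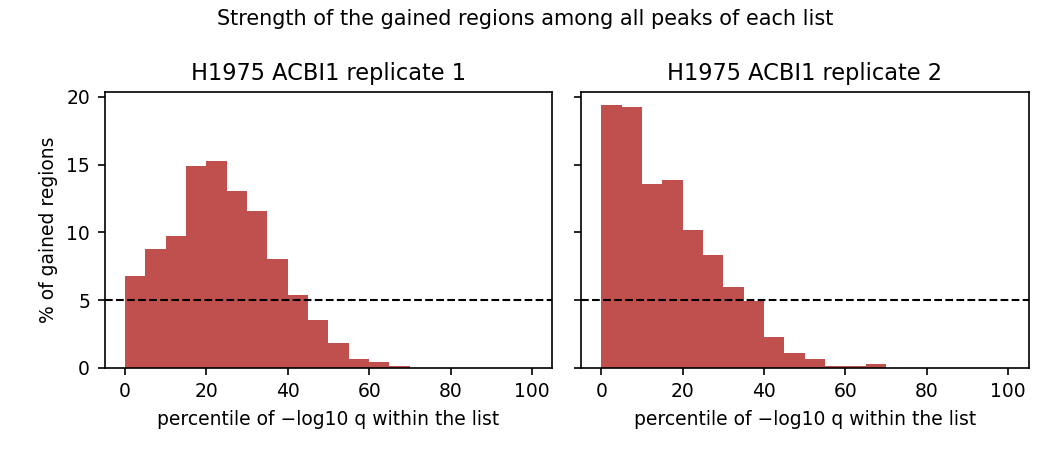
The percentage of the 650 gained regions (y axis) is plotted by the percentile of −log10 q within ACBI1 replicate 1 (left) and replicate 2 (right) of H1975, with a dashed line where an even spread over the list would lie. The regions sit at low percentiles, with medians of 22.9 and 14.1.

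Just outside the rule lay 667 regions with a peak in both ACBI1 lists and 1 DMSO list, and 2050 with a peak in 1 ACBI1 list and no DMSO list. The lone DMSO peak of the former had a median −log10 q of 18.9 (10.1 to 60.6). Near B3GALNT2, chr1:235511604-235512063 was kept out by a DMSO peak of 10.1, with 19.6 and 14.5 in the ACBI1 lists. Near PUM2, chr2:20242380-20243258 was kept out by a DMSO peak of 10.3, with 15.3 and 14.0. The lone ACBI1 peak of the 2050 came from replicate 1, the longer list, in 1832 cases (89.4%), and its median was 17.1. In PTGER4, chr5:40689551-40689716 had 49.2 in replicate 2 alone. Just inside lay chr20:391129-391463 in TRIB3, a pseudokinase of the stress response, at 11.2 and 11.5, chr19:17448278-17448764 over the start of TMEM221 at 10.9 and 10.6, and chr17:50931209-50931600 near LOC124904102 at 10.4 and 10.9. The last of these was in all 4 HCC44 lists, at 40.6 and 32.2 with DMSO and 34.3 and 34.7 with ACBI1. Single peaks decided membership, and not only weak ones: lone DMSO peaks reached 60.6 and lone ACBI1 peaks 56.1. Without DMSO replicate 2 the rule gave 1019 regions, and without ACBI1 replicate 2 it gave 2482. With every list shortened to its 22115 strongest peaks it gave 4059.

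HCC44 was not used to choose the regions, and in it the 650 were listed more often with ACBI1 than with DMSO. With DMSO, 269 (41.4%) and 287 (44.2%) had a peak in replicates 1 and 2. With ACBI1, 451 (69.4%) and 428 (65.8%) did. Both ACBI1 lists stood above both DMSO lists. The means were 42.8% ± 1.96 (SD, n = 2) and 67.6% ± 2.50 (SD, n = 2), which differ by 24.8 points, where replicates had an SD of 2.25 (two-sided exact permutation over samples, p = 0.333, and 6 arrangements allow none smaller). All 48394 merged H1975 regions went the other way, at 72.8% and 71.8% with DMSO and 43.6% and 42.0% with ACBI1. The direction was not particular to the 650, since both classes just outside the rule shared it. The 667 stood at 61.3% and 61.5% with DMSO and 71.4% and 70.8% with ACBI1, and the 2050 at 42.2% and 46.1%, then 59.8% and 58.2%. The log2 ratio of the members' share to the share of all regions was −0.82 and −0.70 with DMSO and 0.67 and 0.65 with ACBI1. Its change of 1.42 exceeded the SD between replicates of 0.058 (two-sided exact permutation, n = 2 a group, p = 0.333, which is again the limit of the design). The difference in the members' share was 13.4 points with peaks of −log10 q of at least 20 and 3.36 points (exact permutation p = 1) with peaks of fold enrichment of at least 5, while the log2 change was 1.37 and 1.45. At that fold enrichment ACBI1 replicate 2 stood at 18.6%, below both DMSO lists (23.1% and 22%), and ACBI1 replicate 1 at 33.1%. The log2 change also holds the fall in the share of all regions, so it can stay large where the members' share hardly differs.

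**Figure D3:**
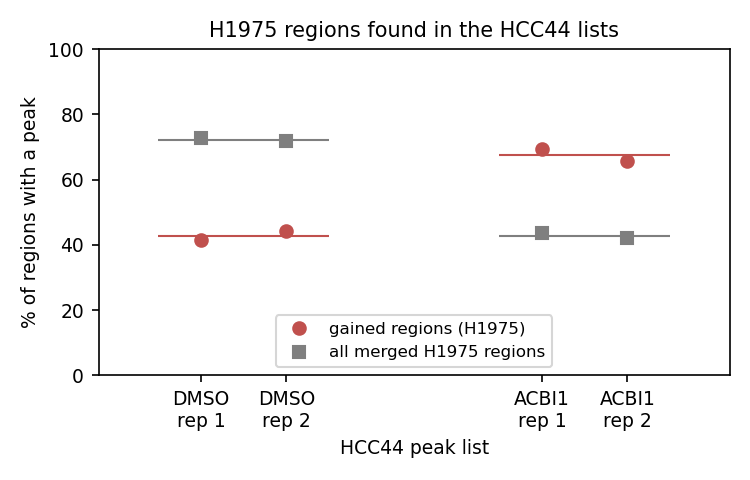
The percentage of regions with a peak (y axis, from 0) is plotted for each of the 4 HCC44 lists (x axis), for the gained H1975 regions and for all merged H1975 regions, with lines at the means of 2 replicates. The gained regions stand at 41.4% and 44.2% with DMSO and at 69.4% and 65.8% with ACBI1, where all regions stand at 72.8% and 71.8% and at 43.6% and 42.0%.

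Read region by region, 391 of the 650 (60.2%) had a peak in both HCC44 ACBI1 lists, against 40% of all merged regions. That share was higher in retained regions (77.4%) and in the 667 (65.5%). It was lower in the 2050 (50.6%) and in lost regions (3.53%). A peak in both HCC44 ACBI1 lists and in neither HCC44 DMSO list was found at 105 of the 650 (16.2%), against 1.16% of all merged regions, so these followed the same rule in both lines. The corresponding share was 0.623% of retained and 0.0281% of lost regions, 7.35% of the 667 and 10.6% of the 2050. Leaving out any 1 of the 8 samples moved the 16.2% to between 11.9% and 23.2%. Of the 650, 332 (51.1%) had a peak in at least 1 HCC44 DMSO list, 205 (31.5%) were in all 4 lists and 150 (23.1%) in none. Only 2 (0.308%) showed the pattern of loss in HCC44, against 27.5% of all merged regions. Peaks in more ACBI1 than DMSO lists were found at 249 (38.3%, against 3.54%) and in fewer at 29 (4.46%, against 36.3%). When HCC44 was merged and called on its own, 1330 of 58436 regions were gained, and 102 overlapped, making up 15.7% of the regions gained in H1975 and 7.67% of those gained in HCC44.

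**Figure D4:**
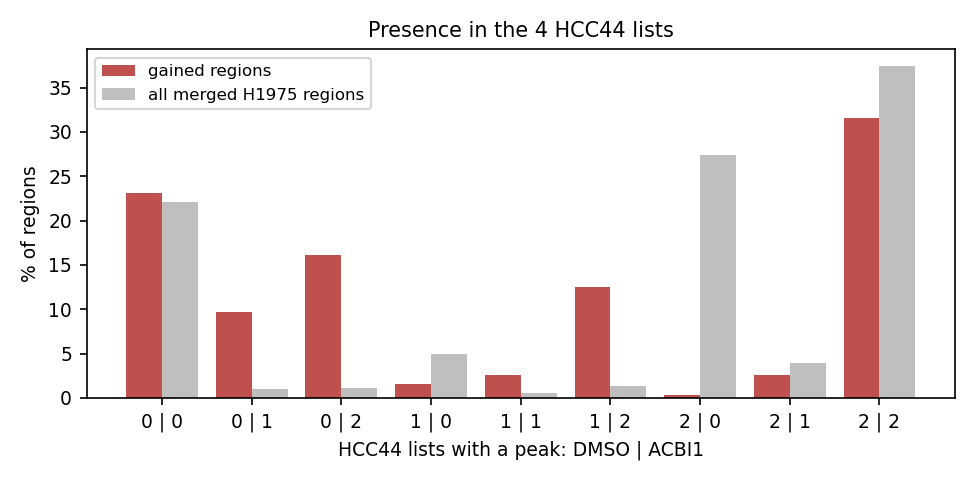
Bars give the percentage (y axis, from 0) of the gained regions and of all merged H1975 regions with each number of HCC44 DMSO and ACBI1 lists holding a peak (x axis). The gained regions exceed all regions at 0 DMSO and 2 ACBI1 lists (16.2% against 1.16%) and fall short of them at 2 DMSO and 0 ACBI1 lists (0.308% against 27.5%).

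The HCC44 pattern went with other features of the regions. The 205 found in all 4 HCC44 lists had a median gap to an H1975 DMSO peak of 9335 bp, the 105 gained in both lines 2818 bp and the 150 absent from HCC44 4382 bp. Their median widths were 400, 360 and 326.5 bp. In the 205, the median −log10 q in HCC44 was 21.2 and 21.6 with DMSO and 25.6 and 23.0 with ACBI1. Of the 26 regions on promoter windows, 12 were among the 150.

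The strongest 10 regions were chosen by mean rank of −log10 q over the 2 ACBI1 lists, and the values are given in the order of replicates 1 and 2. The highest, chr13:114352732-114353072, lay 25409 bp beyond the end of CHAMP1, a zinc finger gene of chromosome alignment, at 66.9 and 67.2 and with no HCC44 peak. Next came chr3:170310249-170310484, 4271 bp beyond the end of PRKCI, an atypical protein kinase C of cell polarity, at 60.6 and 67.2. It was listed in HCC44 with ACBI1 alone, at 48.7 and 39.2, and stood 2004 bp from an H1975 DMSO peak. Inside DNMT3B, a de novo DNA methyltransferase, chr20:32778395-32778740 had 56.2 and 50.1. In HCC44 that region had 23.3 in DMSO replicate 1 and 27.2 and 19.9 with ACBI1. The PRKCI region was therefore listed with ACBI1 alone in both lines, and the DNMT3B region was not.

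NCF1 encodes a cytosolic subunit of the phagocyte NADPH oxidase. The region at its end, chr7:74788552-74788871, had 54.7 and 40.1 and no HCC44 peak, and NCF1 has near-identical pseudogene copies, so the mapping is uncertain. FHOD1, an actin-organising formin, held chr16:67236466-67237033 at 53.6 and 39.2, with 19.6 and 17.0 in the HCC44 ACBI1 lists alone. The nearest protein-coding gene of chr7:38368175-38368449 was AMPH, an endocytic protein, but the region lay within TRG-AS1, 119 bp from the T-cell receptor pseudogene segment TRGV1, at 52.8 and 38.3. Its one HCC44 peak was in ACBI1 replicate 2, at 23.6. ZNF469 held chr16:88238721-88238988 (40.1 and 47.8), which was in 1 HCC44 list of each treatment. The region chr16:11532123-11532567 lay 4545 bp from LOC400499 (40.0 and 55.4, no HCC44 peak). The nearest protein-coding gene of chr7:113421696-113421996 (46.1 and 43.1) was LOC107986837, 275254 bp away. For chr1:16872723-16872992 (44.4 and 43.0) it was CROCC, 41092 bp away, while the tRNA gene TRE-TTC3-1 lay 68 bp away. The latter pair were in all 4 HCC44 lists, and the LOC107986837 region stood 288437 bp from any H1975 DMSO peak. Of the 10 strongest, 2 were listed in HCC44 with ACBI1 in both replicates and not with DMSO.

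Among the 105 regions gained in both lines, the strongest 10 began with those of PRKCI and FHOD1. CELSR1, a cadherin of planar cell polarity, had chr22:46542368-46542727 4747 bp away, at 42.3 and 43.0 in H1975 and 27.4 and 24.2 in HCC44. SHE, an adaptor that binds phosphotyrosine, held chr1:154479895-154480254 at 43.3 and 39.4, and 38.8 and 33.5 in HCC44. SLC28A1, a sodium-coupled nucleoside transporter, held chr15:84928117-84928457 at 48.2 and 35.6, and 27.5 and 22.3 in HCC44. All 3 stood above the median of the 650 in both H1975 lists, which follows from their choice by rank. SMG6, an endonuclease of nonsense-mediated decay, held chr17:2244740-2245027 (32.7 and 41.3, with 25.4 and 26.7 in HCC44). CIPC, a repressor of the circadian factor CLOCK, had chr14:77068121-77068660 29598 bp upstream of its start (36.6 and 33.2, with 30.3 and 26.6). SLC16A11, of the monocarboxylate transporter family, had chr17:7051979-7052472 7887 bp upstream of its start (34.1 and 33.0, with 26.9 and 23.0). The hemidesmosome collagen gene COL17A1 held chr10:104045539-104046021 (33.7 and 32.9, with 18.8 and 21.4), and the kinesin gene KIF3C held chr2:25951107-25951428 (35.5 and 28.9, with 29.1 and 24.1). The H1975 values chose these regions and HCC44 presence selected them, so both are descriptions. Of these 10, 6 lay inside a protein-coding gene, as did 47.6% of the 105 and 61.9% of all merged regions. All 10 had an H1975 DMSO peak between 1374 and 4918 bp away, where the median of the 105 was 2818 bp.

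At gene boundaries, the strongest after NCF1 were at TRAF4, TICAM1, ANGEL1 and TOR1AIP2. TICAM1 encodes TRIF, an adaptor through which some Toll-like receptors induce interferon. The region chr19:4815524-4815898 lay 33 bp outside the gene on the side of its end, 15814 bp from its start, at 42.0 and 30.3, and had no HCC44 peak. TRAF4, a signalling adaptor of the TRAF family, held chr17:28749869-28750389 at 34.7 and 36.4, and ANGEL1 had chr14:76784746-76785099 909 bp away at 41.9 and 30.3. Both were in all 4 HCC44 lists.

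Gained regions were spread over the genome, with more on chromosome 19. It held 82 (12.6%) of them, against 5.46% of all merged, 7.76% of retained and 2.89% of lost regions. Of all chromosome 19 regions 3.10% were gained, against 2.13% on chromosome 17, 2.05% on 20 and 1.81% on 11, and 0.736% on 14 and 0.739% on 4. In the first 20 Mb of chromosome 19 lay 56 of the 82 (68.3%), against 47.7% of all its regions. Zinc finger (ZNF) genes held 2 of the 82 (2.44%), against 13.8% of all its regions. Of the 150 gained regions absent from HCC44, 33 (22%) were on chromosome 19, against 10 (9.52%) of the 105 gained in both lines and 14 (6.83%) of the 205 in all HCC44 lists. Chromosome copy number was not analysed here, and its part in these shares was not tested.

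**Figure D5:**
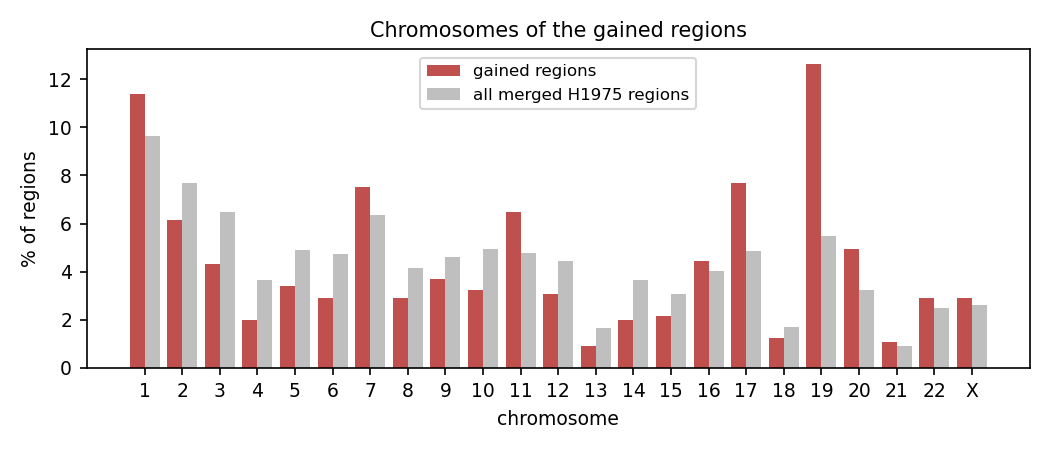
Bars give, for each chromosome (x axis), the percentage (y axis, from 0) of the gained regions and of all merged H1975 regions. Chromosome 19 holds 12.6% of the gained and 5.46% of all regions.

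Among the 650, 10 pairs of neighbours lay within 10 kb and 61 within 100 kb of each other. Spacing was not compared with that of other regions. TNRC18, a gene with trinucleotide repeats, was the one protein-coding gene with 4 within 50 kb. These were chr7:5412732-5413442 inside the gene (24.2 and 11.3), chr7:5450593-5451241 (21.7 and 13.2), chr7:5284768-5285194 (19.1 and 13.6) and chr7:5296656-5297068 (18.2 and 10.4). The former pair were gained in HCC44 too, the third was in all HCC44 lists and the last in none. Another 8 genes had 3, several of them neighbours whose windows hold the same regions. TICAM1 and PLIN3 share theirs on chromosome 19. The interferon-induced antiviral gene BST2 shares its regions there with MVB12A and TMEM221. These names were picked after their values were seen.

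Of 19974 protein-coding genes, 1700 (8.51%) had a gained region within 50 kb, which is the background for the lists. AP-1 genes, whose products pair as FOS and JUN dimers at enhancers, had one at 4 of 10. They were FOSL2, with chr2:28452237-28452736 34919 bp away (27.1 and 28.5, in all HCC44 lists), JUNB, JUND and FOSB. JUNB had 2 regions, 44880 bp (22.7 and 30.1, in all HCC44 lists) and 30524 bp away (21.6 and 20.4, in no HCC44 list). The JUND region lay 27472 bp away (29.7 and 15.9, in 1 HCC44 list of each treatment). The FOSB region lay 24137 bp away (16.6 and 12.4, gained in HCC44 too). JUNB, JUND and FOSB are on chromosome 19, where gained regions were more frequent. TEAD and YAP genes had one at 2 of 10: TEAD3, inside which chr6:35473994-35474965 had 20.9 and 18.5, and TEAD4, 817 bp from chr12:3041494-3041820 at 30.2 and 23.9. The TEAD3 region was in 1 DMSO list and both ACBI1 lists of HCC44, and the TEAD4 region was in all HCC44 lists. SWI/SNF genes had one at 2 of 20, DPF2 (21.7 and 14.4, gained in HCC44 too) and SMARCD2 (12.4 and 10.3, in all HCC44 lists), and none was within 50 kb of the ACBI1 targets SMARCA2, SMARCA4 or PBRM1. Among other remodellers it was 2 of 12, INO80 (25.1 and 24.4, in no HCC44 list) and CHD2 (18.1 and 14.4, in all HCC44 lists). Among polycomb genes it was 2 of 11, since CBX2 and CBX8 share chr17:79741864-79742197 (19.1 and 15.7, gained in HCC44 too).

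STING and interferon genes had a gained region at 1 of 19. It was IRF3, the transcription factor downstream of STING, with chr19:49684562-49684923 18704 bp away, at 13.3 and 14.5 and with no HCC44 peak. None of the 14 neural and neuroendocrine genes had one. No epithelial, mesenchymal, lung or blood marker had one within 50 kb. The lists are small, and none of these shares was tested against the background.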

How the data were processed

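ATAC-seq peak lists of 8 samples were used as deposited, 1 list per sample. Reads were aligned to hg38 and BWA was among the tools, per the submitters' processing notes. The peak caller, its settings and the filters are not given in the sources used here. In each list, the authors gave every peak a fold enrichment, a linear ratio over the caller's background, and a p-value and q-value as −log10 values, read from the deposited columns by the broadPeak layout. The lowest deposited −log10 q was between 10.0 and 10.2 in every list.

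Peaks were merged within H1975 and read against the HCC44 lists (at least 1 bp of overlap). Genes and promoter windows came from RefSeq (GRCh38.p14). The shares in the 4 HCC44 samples were compared by an exact permutation test over samples. Replicate numbers name no shared batch, so the main test is unblocked. The members, the 7 gene lists and the tests were chosen with earlier results of these data known. The named regions are the 10 strongest by mean within-list rank of −log10 q, the 10 strongest also gained in HCC44, the 5 strongest at a gene boundary, the 3 lowest, those at genes with 4 or more within 50 kb, and those of list genes. The planned motif search of whole regions needs a genome and was not run, so motifs were searched in the promoter windows alone, without p53, REST and ISRE. A few items withheld for evaluation are not reported here. Alternatives were each sample left out, stricter peaks, equal list lengths, other merging and windows, and a replicate block. The interval functions were tested on simulated data. Python 3.11.15, numpy 2.4.6, pandas 2.3.3, scipy 1.17.1 and matplotlib 3.10.9 were used.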

Additional observations from a re-analysis of the deposited data

How the results depend on the processing

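The rule gave 650 regions, and between 900 and 2482 with 1 H1975 sample left out (1019 without DMSO replicate 2, 2482 without ACBI1 replicate 2), since 1 list then sets presence. It gave 4059 with equal list lengths, 460 with peaks of −log10 q of at least 20, 655 with a fold enrichment of at least 5 and 634 with merging at 1 kb. The share with a peak in both HCC44 ACBI1 lists (60.2%) ran from 54.2% to 69.4% with 1 sample left out, and was 40.7% at −log10 q of at least 20, 16.8% at fold 5 and 64.7% with equal lengths. The share gained in HCC44 too (16.2%), a result added after seeing the data, ran from 11.9% to 23.2% with 1 sample left out, and was 8.70% (0.767% of all regions), 5.95% (0.993%) and 42.8% (13.2%) under those settings in turn. The difference of 24.8 points ran from 17.2 to 26.6 with 1 sample left out, and was 13.4, 3.36 and 50.8 points under the same settings. The log2 change of 1.42 ran from 1.16 to 1.48 with 1 sample left out, and was 1.37, 1.45 and 1.81. It also holds the fall in the share of all regions with ACBI1, so it does not measure the members alone. The mean difference and the log2 change kept their sign under these alternatives, but at fold 5 ACBI1 replicate 2 (18.6%) lay below both DMSO lists (23.1% and 22%). With a replicate block, which permutes only within same-numbered HCC44 pairs, the difference stayed 24.8 points and the log2 change 1.42, each with an exact permutation p of 0.5. The share at a gene boundary (13.5%) was 35.1% with windows of 5 kb, 21.8% with all annotated genes and 26.5% with equal lengths. The share within 10 kb of a DMSO peak (63.8%) was 35.7% with equal lengths and 46.9% at fold 5. The unknown read depth limits what a missing peak shows, and with 2 samples a group no test here can pass 0.05.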

Other observations

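Several gained regions lay at small RNA genes and receptor segments, which were picked after their values were seen. A tRNA gene lay within 1 kb of 8 of the 650 (1.23%), against 0.729% of retained, 0.0211% of lost and 0.357% of all merged regions, and 6 of the 8 overlapped the tRNA gene itself. In the H1975 ACBI1 lists, the region over TRC-GCA14-1 had a −log10 q of 37.5 and 24.2. The region 68 bp from TRE-TTC3-1, which is the CROCC region given above, had 44.4 and 43.0. The region 56 bp from TRV-CAC4-1 had 24.5 and 12.9. TRE-TTC3-1, TRV-CAC4-1 and TRC-GCA9-2 were in all 4 HCC44 lists, while TRC-GCA14-1, TRS-AGA2-3 and TRK-TTT9-1 were in 1 ACBI1 list and no DMSO list of HCC44. TRL-TAG3-1 was in 1 HCC44 list of each treatment, and TRC-GCA9-3 was in 1 DMSO list and no ACBI1 list. tRNA genes occur in near-identical copies, so reads may be shared between them.

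Gained regions overlapped 3 miRNA genes, MIR6872, MIR1238 and MIR614, a share of 0.462% that is near the 0.310% of all merged and 0.623% of retained regions. The MIR6872 region, chr3:50273000-50273262, also covered part of a SEMA3B promoter window, with a −log10 q of 36.8 and 33.5 in H1975 and a peak in 1 ACBI1 list and no DMSO list of HCC44. In the T-cell receptor gamma locus, a region 45 bp from the V segment TRGV4 (30.3 and 29.0) had its one HCC44 peak in ACBI1 replicate 1, and the one 119 bp from TRGV1 (52.8 and 38.3) had it in ACBI1 replicate 2.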
